A study of Mus musculus with 12 samples.

Results

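The mitochondrial genome of the mouse encodes all the mitochondrially made subunits of respiratory complexes III, IV and V in 5 counted features: mt-Co1, mt-Co2 and mt-Co3 for complex IV, mt-Cytb for complex III, and mt-Atp8_6, which joins the overlapping genes mt-Atp8 and mt-Atp6 of complex V. They were taken by name from the gene count tables, with earlier results of these data known. They are 5 of 11 mitochondrial mRNA features, of 36 mitochondrial features and of 51911 features in all. Per-base depth tables of the mitochondrial genome gave mt-Atp8 and mt-Atp6 apart, so 6 genes were followed by depth.

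The libraries were made from total RNA of mouse hearts and form 4 groups of 3. Groups were PTCD1 knockout (KO) and wild type (WT), each without treatment or with CMC, a carbodiimide that forms bulky adducts on RNA bases, is used to map pseudouridine, and was applied to isolated RNA. PTCD1 is a pentatricopeptide repeat protein of mitochondria, and the series asks how its loss changes RNA. Cytoplasmic ribosomal RNA had been depleted in all groups. Age, sex, strain, the knockout allele, any Cre driver and the number of animals per library are not stated in the sources used here. Replicates are numbered, but nothing states that they are separate mice, so p-values measure the spread between these libraries only, which may be technical.

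Complex III passes electrons from ubiquinol to cytochrome c, complex IV (cytochrome c oxidase) passes them on to oxygen, and complex V (ATP synthase) uses the proton gradient to make ATP. Each complex combines a few mitochondrially encoded core subunits with many subunits made from nuclear genes, and heart muscle depends heavily on all of them. Mitochondrial genes are transcribed as long precursors. Most mRNAs are released where a tRNA between them is cut out, but no tRNA lies between mt-Atp6 and mt-Co3, so that boundary is cut by other means.

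The gene ends at this boundary, and the other ends named in the results, are shown because the depth results turn on them. All are from mm10, plus strand of chrM, with the start or stop codon, or the lone last T that polyadenylation completes to a stop, in capitals. The window of mt-Atp6 is 8588 to 8627, that of the start of mt-Co3 is 8587 to 8626, and that of the start of mt-Cytb is 14125 to 14164. The 3' windows are 9371 to 9410 for mt-Co3 and 15269 to 15308 for mt-Cytb.
mt-Atp6 3' end: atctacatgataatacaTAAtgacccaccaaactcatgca
mt-Co3 5' end: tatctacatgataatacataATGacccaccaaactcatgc
mt-Cytb 5' end: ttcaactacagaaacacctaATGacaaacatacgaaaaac
mt-Co3 3' end: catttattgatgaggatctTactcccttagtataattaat
mt-Cytb 3' end: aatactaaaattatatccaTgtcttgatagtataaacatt

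The last A of the mt-Atp6 stop codon is the first A of the mt-Co3 start codon, an overlap of 1 base. In GENCODE M21 mt-Co1 spans 5328 to 6872, mt-Co2 7013 to 7696, mt-Atp8 7766 to 7969, mt-Atp6 7927 to 8607, mt-Co3 8607 to 9390 and mt-Cytb 14145 to 15288, each a single exon on the plus strand of chrM. The genes mt-Atp8 and mt-Atp6 overlap by 43 bases. Both mt-Co3 and mt-Cytb end on 1 base after their last whole codon. The authors counted slightly other intervals, with mt-Co1 at 5325 to 6941, which takes in the antisense tRNA gene mt-Ts1, and mt-Atp8_6 at 7765 to 8606.

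Total counts ran from 10389398 to 12462093 per library, of which 2683284 to 3187748 were nuclear, and the mitochondrial share was 70.5% to 75.4%. Ptcd1 itself had 17 to 28 counts in KO and 71 to 103 in WT libraries over both treatments. One WT library with CMC (replicate 3) stood apart from its group in the mitochondrial mRNAs, and results that rest on it are given with and without it. The heart label was met by cardiomyocyte markers, which summed to 53952 to 54906 counts per 1000000 (CPM) in untreated WT and 32715 to 33228 in untreated KO libraries. All 8 of these markers fell in untreated KO libraries, where 28.7% of the 12228 features tested did. In bulk RNA, fewer cells of a type and less RNA per cell cannot be told apart.

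All 5 features were higher in KO than in WT hearts, by 1.58-fold to 2.69-fold in untreated libraries, when counts were scaled over all genes. Within the pool of mitochondrial mRNAs, however, only mt-Atp8_6 of the 5 was called as gaining share in untreated libraries, and mt-Co1, mt-Co3 and mt-Cytb lost share. Outside the 5, mt-Nd1, mt-Nd2 and mt-Nd3 gained more share (log2 0.90, 0.88 and 0.65), and mt-Nd4l_4 gained 0.05. Also outside the 5, mt-Nd5 (-1.02) and mt-Nd6 (-2.48) lost more share than any of the 5. The 5 features together took 14.5% ± 0.127 (SD, n = 3) of all counts in untreated WT and 29.6% ± 0.0513 in untreated KO libraries. All mitochondrial features together took 72.5% and 73.0%. Of the mitochondrial rRNAs, mt-Rnr2 was lower (log2 -2.92) and mt-Rnr1 higher (1.93) in untreated KO libraries. Relative depth over the boundary of mt-Atp6 and mt-Co3 was lower in KO. Levels are given in TMM-scaled CPM per base of the counted feature, which allows genes of different length to be set side by side.

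The subunit mt-Co1 holds the catalytic site where complex IV reduces oxygen. Its level was 45.8, 46.1 and 45.2 in the untreated WT libraries and 73.0, 74.2 and 72.4 in the untreated KO libraries. After CMC it was 41.4, 38.5 and 44.3 in WT and 76.5, 77.5 and 74.0 in KO. Every KO library lay well above every WT library, and the WT libraries with CMC were the most spread. In untreated libraries mt-Co1 rose 1.58-fold in KO (log2 0.66, SE 0.02, edgeR adjusted p = 1.49e-92), the smallest rise of the 5. The deposited table of the authors gave a log2 fold change of 0.68.

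The subunit mt-Co2 carries the copper centre that receives electrons from cytochrome c. Its level was 25.5, 26.0 and 24.8 in untreated WT and 56.8, 56.9 and 55.9 in untreated KO libraries. With CMC the WT libraries stood at 23.4, 22.5 and 26.5 and the KO libraries at 63.8, 63.7 and 62.0. The genotypes did not overlap, and KO libraries with CMC were the highest. The untreated difference was 2.19-fold (log2 1.13, SE 0.02, edgeR adjusted p = 3.44e-136).

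The subunit mt-Co3 is the third core subunit of complex IV and carries no metal centre. Its level was 22.1, 21.2 and 20.9 in untreated WT and 40.0, 40.4 and 40.1 in untreated KO libraries. After CMC it was 19.1 to 20.5 in WT and 34.9, 34.4 and 33.9 in KO. Here the KO libraries with CMC were lower than the untreated KO libraries, unlike for the other features. In untreated libraries mt-Co3 rose 1.85-fold in KO (log2 0.89, SE 0.02, edgeR adjusted p = 3.15e-112).

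Cytochrome b, made from mt-Cytb, is the only subunit of complex III that mitochondria make themselves, and it carries the b hemes and binds ubiquinol and ubiquinone. Untreated levels were 10.4, 10.6 and 10.4 in WT and 20.5, 20.4 and 20.2 in KO libraries. With CMC they were 9.76, 8.73 and 13.2 in WT and 31.4, 31.3 and 29.3 in KO. WT replicate 3 with CMC was above all other WT libraries, and the coefficient of variation in that group was 22.1%, against 0.882% in untreated WT. The untreated difference was 1.92-fold (log2 0.94, SE 0.02, edgeR adjusted p = 2.28e-117).

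The feature mt-Atp8_6 is a bicistronic mRNA for ATP8 and ATP6, membrane subunits of ATP synthase, of which ATP6 forms part of the proton channel. Its level was 32.9, 33.4 and 31.4 in untreated WT and 89.2, 89.1 and 88.4 in untreated KO libraries. After CMC it stood at 31.7, 29.9 and 35.7 in WT and at 109, 110 and 108 in KO. Among the 5 features this was the largest ratio between genotypes in both treatments. The untreated rise was 2.69-fold (log2 1.43, SE 0.02, edgeR adjusted p = 6.62e-161), and the deposited table of the authors gave a log2 fold change of 1.44.

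**Figure D1:**
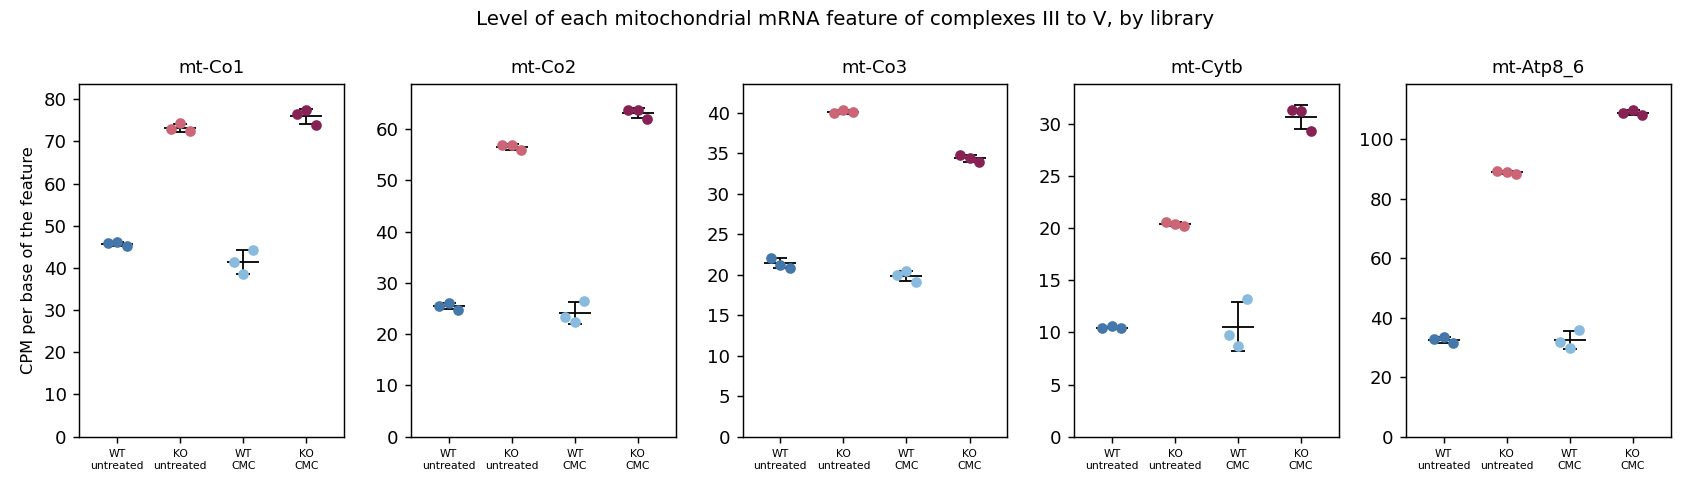
Level of each feature in TMM-scaled CPM per base (vertical axes from 0, one scale per panel) for the 3 libraries of each group (points), with the mean and SD (bars). In all panels the KO libraries lie above the WT libraries, and WT libraries with CMC are the most spread for mt-Cytb, at 8.73 to 13.2.

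In the plot of levels by library the genotypes separate in each panel, and the CMC groups differ from the untreated ones mainly in KO. So 5 of 5 features were called higher in untreated KO libraries, where 57.9% of the 12228 features tested were called and 29.2% were called higher. The median log2 difference over all features tested was -0.00. The order of levels also differed. In WT libraries mt-Co1 was highest, followed by mt-Atp8_6, mt-Co2, mt-Co3 and mt-Cytb, and in KO libraries mt-Atp8_6 stood above mt-Co1 with the rest in the same order. Neighbours in these orders did not overlap in any group.

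After CMC the same 5 of 5 were called higher in KO, where 54.3% of 12144 features were called and 27.1% were called higher. Both comparisons use separate libraries, but the same replicate numbers recur in both treatments. Whether libraries of the same number share RNA is not stated. The log2 differences were 0.85 (SE 0.06) for mt-Co1, 1.36 (SE 0.06) for mt-Co2, 0.76 (SE 0.06) for mt-Co3, 1.51 (SE 0.09) for mt-Cytb and 1.72 (SE 0.07) for mt-Atp8_6. The edgeR adjusted p ran from 1.06e-19 for mt-Atp8_6 to 1.70e-12 for mt-Co1. Standard errors were larger than in untreated libraries, where they were 0.02 for each feature.

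Cell type markers differed between the genotypes too. Their counts are read against all features tested in untreated libraries, of which 29.2% rose in KO and 28.7% fell. Beside the fall of the cardiomyocyte list in untreated libraries, macrophage markers summed to 42.3 to 45.7 CPM in KO and 31.9 to 34.0 in WT, with 3 of 4 higher. Of 5 fibroblast markers 2 rose and 2 fell, and they summed to 312 to 315 CPM in KO and 355 to 373 in WT. Of 4 endothelial markers 1 rose and 2 fell (245 to 251 and 247 to 262 CPM). Of 4 smooth muscle markers 2 fell (126 to 140 and 180.2 to 195 CPM), and of 5 red blood cell markers 4 fell (114 to 119 and 129 to 180.2 CPM). The 5 skeletal muscle markers summed to 949 to 1049 CPM in KO and 652 to 666 in WT. Of these 2 were tested, of which Acta1 rose and Ckm fell, while Myh2 had 0 to 2 counts per library and Myh4 had 0 counts in each untreated WT and 6 to 12 in each untreated KO library. The 4 neutrophil and T cell markers were near 0, at a summed 0.173 to 0.695 CPM in untreated KO and 0.186 to 0.283 in untreated WT. The part of these shifts in the levels of the mitochondrial mRNAs was not tested.

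**Figure D2:**
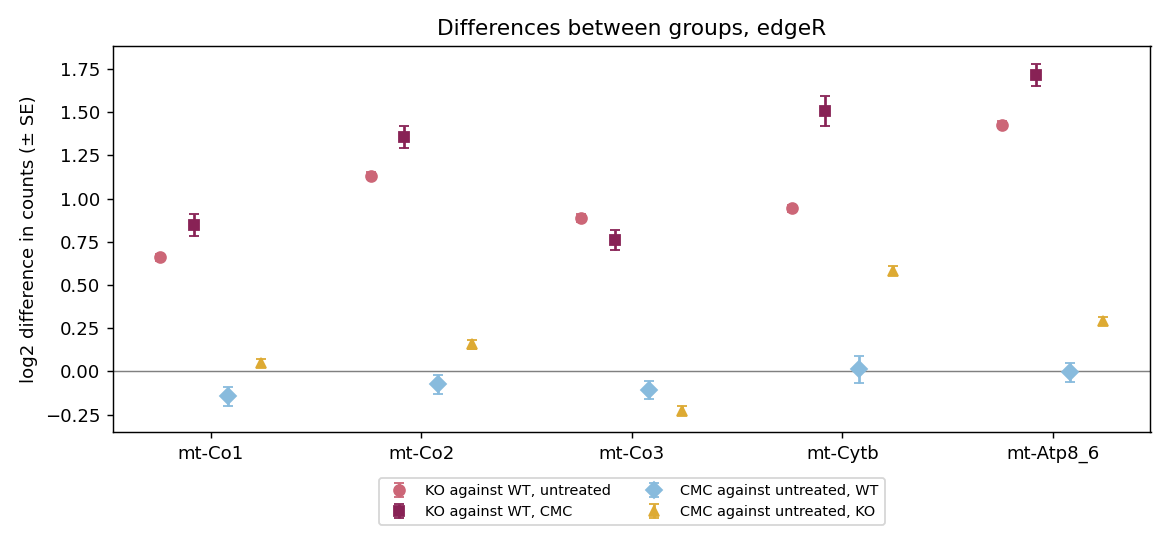
Log2 difference in counts from edgeR for the 5 features in 4 comparisons between groups (vertical axis, log2, with a line at no difference). Bars are the SE, computed from the log2 difference and the F statistic. KO lay above WT in both treatments, from 0.66 to 1.72, while CMC moved features up or down in KO, from -0.23 to 0.58.

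The response to CMC depended on genotype for some features, as the plot of differences between groups shows. In WT libraries 0 of 5 features were called by edgeR and 0 by DESeq2, where edgeR called 2.15% of 12098, and 2 of the 5 had an unadjusted p under 0.05 in edgeR. The log2 differences in WT were -0.14 for mt-Co1, -0.07 for mt-Co2, -0.11 for mt-Co3, 0.01 for mt-Cytb and -0.00 for mt-Atp8_6, with edgeR adjusted p from 0.188 to 0.986. Both mt-Co1 and mt-Co3 were lower in all 3 WT libraries with CMC, and the others overlapped. The shares of all features without overlap, or with an unadjusted p under 0.05, were not computed, so these counts are not read as changes. Without WT CMC replicate 3, mt-Co1 (-0.19), mt-Co2 (-0.15) and mt-Cytb (-0.18) were called lower.

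In KO libraries 4 of 5 features were called, 3 higher and 1 lower, where 12.3% of 11911 were, 6.84% higher and 5.42% lower. The mitochondrial mRNA features outside the 5 were all called as well. Of these mt-Nd1 (0.44), mt-Nd2 (0.63), mt-Nd4l_4 (0.47) and mt-Nd5 (0.67) were higher, and mt-Nd3 (-0.22) and mt-Nd6 (-0.62) were lower. With CMC mt-Cytb rose 1.498-fold (log2 0.58, SE 0.03, edgeR adjusted p = 3.65e-33). The joint ATP synthase feature mt-Atp8_6 rose by 0.29 on the log2 scale and mt-Co2 by 0.16, with all CMC libraries above all untreated ones. In contrast mt-Co3 fell by 0.23 on the log2 scale (edgeR adjusted p = 7.19e-12), with all CMC libraries lower. For mt-Co1 the difference was 0.05 (edgeR adjusted p = 0.152) and the libraries overlapped. Without KO CMC replicate 3 it was 0.07 and was called. The 4 comparisons share libraries in pairs, so they are given side by side and not as independent results.

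The difference between the CMC effects of both genotypes was itself tested in 1 fit of all 12 libraries. It was called for 2 of 5 features, both higher, where 1.46% of 12788 were and 1.07% were higher. The mitochondrial mRNA features outside the 5 were all called higher too. Their differences were 0.50 for mt-Nd1, 0.58 for mt-Nd2, 0.45 for mt-Nd3, 0.47 for mt-Nd4l_4, 0.52 for mt-Nd5 and 0.40 for mt-Nd6. For mt-Cytb the CMC effect in KO exceeded that in WT by 0.57 (log2, SE 0.09, edgeR adjusted p = 1.39e-04), which held in each fit without 1 library. For mt-Atp8_6 it did so by 0.29 (SE 0.07, edgeR adjusted p = 0.0209). That call was lost in 6 fits without 1 library each, namely untreated KO replicate 1 or 3, untreated WT replicate 1 or 2, or KO CMC replicate 1 or 2, with edgeR adjusted p from 0.0525 to 0.0908. The differences for mt-Co2 (0.23), mt-Co1 (0.19) and mt-Co3 (-0.12) were not called, while all 5 features were called without WT CMC replicate 3.

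Shares of the mitochondrial mRNA pool set the features against each other and do not rest on the scaling to nuclear genes. Such shares add up to a fixed total, so a rise of one lowers others. The 5 features made up 69.7% ± 0.247 (SD, n = 3) of the counts of the 11 mitochondrial mRNA features in untreated WT and 61.2% ± 0.126 in untreated KO libraries. After CMC they made up 68.7% ± 2.29 in WT and 55.5% ± 0.488 in KO. The WT libraries with CMC were at 69.7%, 70.4% and, for replicate 3, 66.1%.

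The share of mt-Co1 was 34.8%, 34.6% and 35.2% in untreated WT and 25.2%, 25.3% and 25.2% in untreated KO libraries. Among the 11 features tested 90.9% were called in untreated and 90.9% in CMC libraries, and 4 of 5 members were called in each. Log2 share fell by 0.47 for mt-Co1 (limma adjusted p = 4.26e-10), by 0.24 for mt-Co3 and by 0.18 for mt-Cytb in untreated KO. The share of mt-Atp8_6 rose by 0.30, from 12.9% to 16.0%. For mt-Co2 the difference was 0.01 (limma adjusted p = 0.513), with overlapping libraries, and on counts per length it was -0.11 and called.

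After CMC the share of mt-Co2 was called lower in KO, and that of mt-Cytb was not called. The share of mt-Co3 was 7.99%, 8.76% and 6.61% in WT and 4.68%, 4.59% and 4.76% in KO, a log2 fall of 0.73. For mt-Co1 the share fell by 0.64 on the log2 scale, for mt-Co2 by 0.13, and for mt-Atp8_6 it rose by 0.23. The share of mt-Cytb was 5.93% ± 0.633 (SD, n = 3) in WT and 6.08% ± 0.0703 in KO, a log2 difference of 0.04 that was not called (limma adjusted p = 0.610). It was 0.12 and called without WT CMC replicate 3, and -0.017 and not called without WT CMC replicate 2. Of the other mitochondrial mRNAs, mt-Nd1 (2.03), mt-Nd2 (2.00), mt-Nd3 (1.78) and mt-Nd4l_4 (1.18) had log2 count differences in untreated libraries above those of most members, while mt-Nd5 (0.10) and mt-Nd6 (-1.35) were below all of them.

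**Figure D3:**
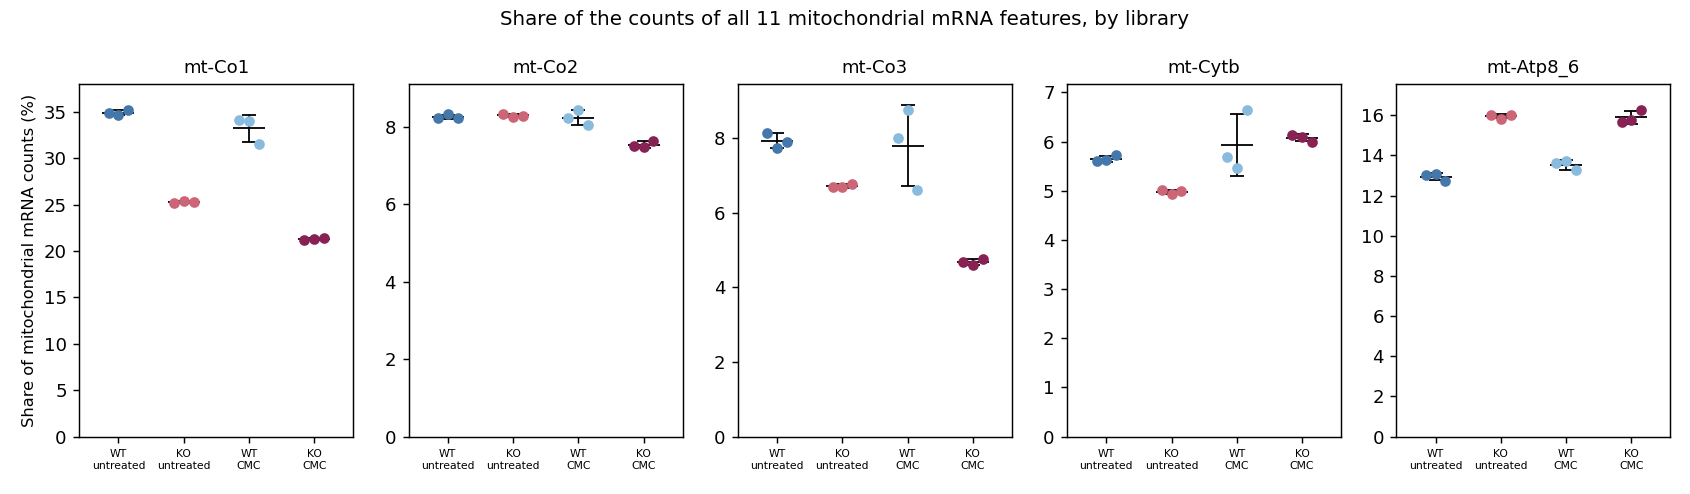
Share of each feature in the counts of the 11 mitochondrial mRNA features (percent, vertical axes from 0, one scale per panel) for the 3 libraries of each group (points), with the mean and SD (bars). The share of mt-Co1 is 34.9% in untreated WT and 25.2% in untreated KO, while that of mt-Co2 overlaps at 8.26% and 8.29%.

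The plot of shares shows the separation of mt-Co1 by genotype and the wide spread of mt-Co3 and mt-Cytb among WT libraries with CMC. Per-base depth allowed the joint feature to be taken apart. Scaled per 1000 nuclear counts, the mean depth of mt-Atp8 was 19.2, 19.1 and 17.8 in untreated WT and 51.9, 53.3 and 53.1 in untreated KO libraries. For mt-Atp6 it was 19.0, 19.4 and 18.2 in WT and 49.5, 49.96 and 49.3 in KO. Both genes were thus at similar depth within a group and higher in every KO library.

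Depth was called higher in KO for all 6 genes, where 97.4% of the 37 mitochondrial genes and the control region were called in untreated libraries, with 78.9% higher, and 84.2% after CMC, with 76.3% higher. In untreated libraries the log2 difference was 1.499 (SE 0.04) for mt-Atp8, 1.39 (SE 0.03) for mt-Atp6, 0.66 for mt-Co1, 1.13 for mt-Co2, 0.87 for mt-Co3 and 0.93 for mt-Cytb. After CMC it was 1.79 for mt-Atp8 and 1.71 for mt-Atp6, 0.86 for mt-Co1, 1.37 for mt-Co2, 0.76 for mt-Co3 and 1.53 for mt-Cytb. Relative to the mean depth of the mitochondrial mRNA genes, the direction was the opposite for mt-Co1, mt-Co2, mt-Co3 and mt-Cytb in both treatments, with mt-Cytb after CMC (-0.069) not called. On that scale mt-Atp6 was still higher but no longer called after CMC (0.12, limma adjusted p = 0.0605). The highest depth over these genes was 536249 reads, below the top value of 1000000 in the deposited tables.

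At the boundary of mt-Atp6 and mt-Co3 both mRNAs must be parted without a tRNA between them. Depth was averaged over 21 bases, from 8597 to 8617, and set against the geometric mean depth of mt-Atp6 and mt-Co3. Reads that end in the window count along with those that cross it. The quotient was 34.4%, 35.3% and 34.6% in untreated WT and 8.67%, 8.62% and 8.56% in untreated KO libraries. After CMC it was 28.0%, 27.3% and 33.6% in WT and 9.61%, 9.86% and 9.31% in KO. All KO libraries were far below all WT libraries, and within genotypes only WT replicate 3 with CMC departed from its group.

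The log2 difference of this quotient between KO and WT was -2.01 in untreated (SE 0.02, limma adjusted p = 3.96e-09) and -1.62 in CMC libraries (SE 0.09, limma adjusted p = 1.73e-05). Of the 36 boundaries of neighbouring mitochondrial genes, 69.4% were called in untreated libraries, with 36.1% lower, and 61.1% after CMC, with 44.4% lower. Since both genes were deeper in KO, part of the quotient's fall lies in its denominator. Scaled per 1000 nuclear counts, the window itself had a depth of 5.27 in untreated WT and 2.86 in untreated KO libraries, and of 4.33 and 3.29 after CMC. On this scale, chosen after the data were seen, the log2 difference was -0.88 in untreated and -0.39 in CMC libraries, and both were called. Against mt-Atp6 alone the untreated difference was -2.27 and against mt-Co3 alone -1.75.

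**Figure D4:**
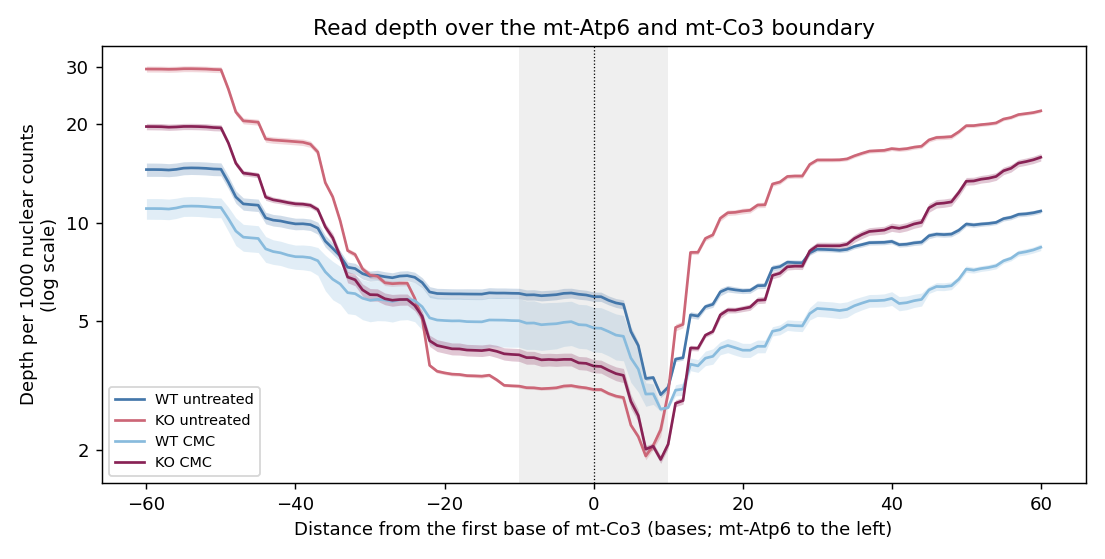
Mean depth per 1000 nuclear counts (log scale) at each base from 60 before to 60 after the first base of mt-Co3, with mt-Atp6 to the left; lines are group means, bands the SD over 3 libraries, and the grey strip the 21-base window. Untreated KO lies above untreated WT at both edges, at 29.6 against 14.5 on the left, and below it at the boundary, at 3.08 against 5.93.

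The plot of depth around the boundary shows the order of the genotypes changing on both sides of the window. At 60 bases inside mt-Atp6 the mean was 14.5 in untreated WT and 29.6 in untreated KO, and at the first base of mt-Co3 it was 5.93 and 3.08. At 60 bases inside mt-Co3 it was 10.8 and 22.03, so KO was again higher. The lowest depth lay 7 bases after the first base of mt-Co3 in the 3 untreated KO libraries, 10 bases after it in WT CMC replicate 3 and 9 bases after it in the other 8 libraries. It was 5064 to 8737 reads, so depth did not limit these values.

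CMC changed the boundary less than genotype did. In WT the log2 difference of the quotient was -0.24 (SE 0.08, limma adjusted p = 0.0576) and was not called, where 50% of 36 boundaries were. It was -0.33 and called without WT CMC replicate 3. In KO it was 0.15 (limma adjusted p = 2.73e-03), where 72.2% were called. The direction in KO turned with 20 bases either side (-0.27), with the lowest depth in the window (-0.080) and relative to mt-Atp6 alone (-0.11). The CMC effect in KO exceeded that in WT by 0.39 (limma adjusted p = 0.0103), a test added after the data were seen, where 38.9% of boundaries were called. That difference depended on the window. It was 0.012 with 20 bases either side (limma adjusted p = 0.889) and 0.014 by lowest depth (limma adjusted p = 0.865), neither called, while with 5 bases either side it was 0.46 and called. Relative to mt-Atp6 alone it was 0.18 and called, and relative to mt-Co3 alone 0.61. The difference was 0.48 without WT CMC replicate 3 and 0.34 without WT CMC replicate 2.

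Another member boundary is that of mt-Te and mt-Cytb, genes on opposite strands that depth cannot separate. Its quotient was 42.7% ± 1.25 (SD, n = 3) in untreated WT and 23.1% ± 0.0643 in untreated KO libraries, and 43.1% ± 3.02 and 28.4% ± 0.512 after CMC. The log2 difference was -0.89 in untreated (limma adjusted p = 7.67e-07) and -0.60 in CMC libraries (limma adjusted p = 2.63e-04). At the boundary of mt-Atp8 and mt-Atp6, which overlap and stay on 1 mRNA, the quotient was 155% ± 1.47 in untreated WT and 158% ± 0.107 in untreated KO libraries. That log2 difference was 0.03 and was not called (limma adjusted p = 0.210). After CMC it was 0.11 (limma adjusted p = 0.0746), and it was 0.14 and called without WT CMC replicate 3.

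The other boundaries of these genes are with tRNAs. Their quotients ran over the 12 libraries from 11.9% to 18.8% between mt-Ty and mt-Co1, from 11.7% to 17.3% between mt-Td and mt-Co2, from 1.22% to 3.92% between mt-Co2 and mt-Tk and from 7.98% to 13.9% between mt-Tk and mt-Atp8. They ran from 32.1% to 65.6% between mt-Co3 and mt-Tg and from 4.66% to 12.1% between mt-Cytb and mt-Tt. Between mt-Co1 and mt-Ts1, which lies on the other strand, they ran from 94.6% to 133%. All of these lay below the quotients of mt-Atp8 and mt-Atp6, which ran from 154% to 186%. Genotype differences at these tRNA boundaries were tested but are not given one by one. A lower quotient in KO is thus not read as particular to any boundary.

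Depth along each mRNA was compared as the ratio of the last to the first of 3 equal parts, from the 5' to the 3' end. Among the 15 mitochondrial mRNA and rRNA genes 93.3% were called in untreated libraries, 66.7% lower and 26.7% higher, and 5 of 6 members were. For mt-Co1 the ratio was 1.69 ± 0.0178 (SD, n = 3) in WT and 1.35 ± 0.0140 in KO (log2 -0.33, limma adjusted p = 6.02e-06). It was also lower in KO for mt-Cytb (1.12 and 0.921), mt-Atp6 (0.689 and 0.581) and mt-Co3 (1.003 and 0.918). Higher in KO was mt-Co2, at 0.374 in WT and 0.403 in KO, and mt-Atp8 was not called at 3.09 and 3.002 (log2 -0.04, limma adjusted p = 0.302), though it was -0.076 and called without untreated WT replicate 1.

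After CMC 86.7% of these genes were called, 73.3% lower, and 5 of 6 members again. The log2 differences were -0.29 for mt-Co1, -0.42 for mt-Atp6, -0.26 for mt-Co3 and -0.27 for mt-Cytb. For mt-Cytb the difference was -0.12 and not called (limma adjusted p = 0.0562) with 100 bases left out at each end. For mt-Co2 the direction was the opposite of that in untreated libraries, at -0.41 (limma adjusted p = 0.0319). That call was lost in each fit without KO CMC replicate 1, 2 or 3 or WT CMC replicate 1, with limma adjusted p from 0.0707 to 0.0892. The ratio of mt-Co2 was 0.557 ± 0.0966 in WT with CMC, the widest spread among the members' ratios below 1. For mt-Atp8 the difference was 0.27 (limma adjusted p = 0.0994), and 0.38 and called without WT CMC replicate 3.

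**Figure D5:**
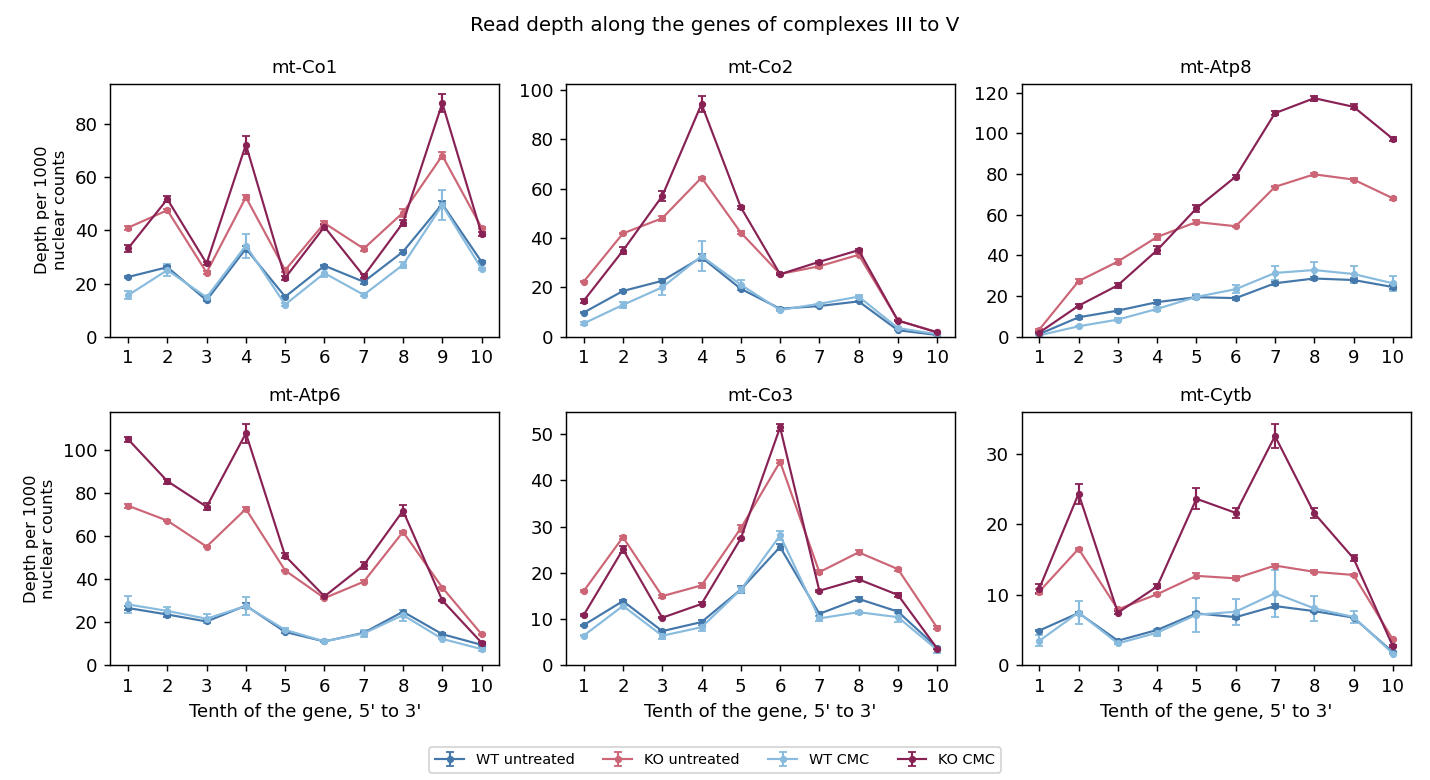
Mean depth per 1000 nuclear counts (vertical axes from 0, one scale per panel) in 10 equal parts of each gene from the 5' to the 3' end; points are group means and bars the SD over 3 libraries. The KO means lie above the WT means in each part of each gene at both treatments, and in mt-Atp6 the gap narrows toward the 3' end, where untreated KO is at 14.4 and untreated WT at 9.48.

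Profiles in 10 equal parts of each gene show where the genotypes differ, as a description with no test. The log2 difference of untreated KO and WT in mt-Atp6 ran from 1.51 in part 2 to 0.61 in part 10, next to mt-Co3. In mt-Co1 it ran from 0.87 in part 1 to 0.45 in part 9, and in mt-Atp8 only from 1.44 to 1.54. The smallest log2 difference of KO and WT in any part was 0.14, in part 10 of mt-Co3 after CMC. In mt-Cytb the CMC effect in KO was uneven, with a log2 difference of 1.1997 in part 7 and -0.44 in part 10. In mt-Co3 the difference with CMC in KO ran from 0.23 in part 6 to -1.16 in part 10. At the 5' end the difference with CMC in part 1 was -0.87 in WT and -0.62 in KO for mt-Co2, -0.93 and -0.79 for mt-Atp8, -0.53 and -0.31 for mt-Co1, and -0.44 and -0.57 for mt-Co3. For mt-Cytb it was -0.53 in WT and 0.058 in KO, and for mt-Atp6 it was 0.080 and 0.503.

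Most nuclear genes of the same complexes were lower in untreated KO hearts, where the mitochondrial mRNAs were higher. Of all 12228 features tested 28.7% fell. Of 9 nuclear subunits of complex III 8 fell and 1 was not called, with Uqcrq at -1.19, Uqcr11 at -0.99 and Uqcrh, the hinge protein that takes part in the contact with cytochrome c, at -0.67 (log2). The list's median was -0.54, and mt-Cytb was at 0.94. Of 15 complex IV subunits tested 10 fell and 2 rose, with a median of -0.17. Those that fell most were Cox7a1 (-1.68) and Cox8b (-1.03), the heart and muscle isoforms of their subunits, and Cox6c (-1.02). Those that rose were Cox6a1 (1.27) and Cox8a (1.21), the isoforms that most other tissues use. Several of these small subunits have processed pseudogenes, with which reads may be shared, so their values are uncertain.

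Of 18 complex V genes 15 fell and 2 rose, with a median of -0.42. The largest falls were in the peripheral and membrane subunits Atp5k (-0.86), Atp5j (-0.83) and Atp5h (-0.72). The rises in Atp5d (0.13), of the central stalk, and Atpif1 (0.12), the ATPase inhibitor, were not called by DESeq2. After CMC, 9 of 9 complex III, 11 of 15 complex IV and 15 of 18 complex V genes were lower in KO, where 27.2% of all features were. Cardiomyocyte markers, whose list summed to 51922 to 55517 CPM in WT and 34093 to 34902 in KO with CMC, fell beside them in both treatments, and their part in the nuclear falls was not tested.

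The counts of called assembly factors are read against all features tested, of which 29.2% rose and 28.7% fell, and those for complex IV lay near these shares. Of 6 factors of complex III, Uqcc3 rose (0.42) and Uqcc1 (-0.33) and Ttc19 (-0.23) fell. Of 19 complex IV factors tested 5 rose and 5 fell. Rises were largest for the copper-route gene Cox19 (1.46), for Cox18 (1.005), which inserts mt-Co2 protein into the membrane, and for Coa4 (0.95). Falls were largest for Coa7 (-0.79), Cox20 (-0.64), a chaperone of mt-Co2 protein, and Pet100 (-0.59). Of 4 complex V factors Atpaf1 (-0.42), Atpaf2 (-0.39), which are chaperones of the catalytic head, and Tmem242 (-0.24) fell. DESeq2 called fewer of the assembly factors, 0 higher and 1 lower for complex III, 3 higher and 2 lower for complex IV and 0 for complex V.

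Of 25 factors of mitochondrial mRNA processing, stability and translation 4 rose, 4 fell and 17 were not called, where 29.2% of all features rose and 28.7% fell, so the list does not stand above the background. The risers were led by Elac2 (0.86), the nuclease that cuts tRNA 3' ends, Pde12 (0.86), a deadenylase, and Mtpap (0.75), the mitochondrial poly(A) polymerase. The fallers were Ptcd1 itself (-1.93), Fastk (-0.42), Ptcd2 (-0.29), a relative of PTCD1, and Ptcd3 (-0.25), a protein of the small mitochondrial ribosomal subunit. The list's median was 0.06. With CMC 4 were higher and 5 lower in KO, where 27.1% and 27.2% of all features were.

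Outside the mitochondrial genome, the patterns most like the mean of the 5 features over the 12 libraries were those of Hspa9, Vcan, Rpl12, Ddx27 and Lrrc59. Likeness was the root mean square difference of log2 CPM, each centred on its own mean, among 10951 protein-coding genes. It was 0.0605 for Hspa9, a chaperone of the mitochondrial matrix, 0.0645 for Vcan, a matrix proteoglycan, 0.0650 for Rpl12, a cytosolic ribosomal protein, 0.0720 for Ddx27 and 0.0810 for Lrrc59. Their log2 differences of KO and WT in untreated libraries were 0.97 to 1.12 on that scale. Among the members themselves mt-Co2, at 0.0606, lay closest to their mean, and mt-Atp8_6, at 0.229, lay farthest.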

How the data were processed

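Gene tables held raw read counts per feature, which the authors deposited separately for untreated and CMC libraries with feature lengths, and per-base tables of depth over the mitochondrial genome held counts of reads. The build was mm10, and the tools listed in the submitters' processing notes are DESeq2 1.16.1, featureCounts 1.5.1, HISAT2 2.0.5 and SAMtools 1.5. For untreated libraries, a table of KO against WT that the authors deposited gives log2 fold changes and p-values. The sources used here do not give the strandedness of counting. The tRNA features had few counts even at high depth, with 0 to 2 for mt-Te at mean depths of 3557 to 5227. So counts and depth treat reads over gene ends differently. Depth was low over some tRNAs, such as mt-Tk at 23.2 to 79.2.

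Counts passed filterByExpr, had TMM scaling and went into the quasi-likelihood test of edgeR 4.0.16, with Benjamini-Hochberg adjustment over all features and a threshold of 0.05, in R 4.3.3 (with version 1.17.8 of data.table). The SE given with edgeR values is the absolute log2 difference divided by the square root of the F statistic. Shares, depth, boundaries and 3' to 5' ratios were tested on the log2 scale with limma 3.58.1. DESeq2 1.42.0, other scalings, no filter, other windows, a replicate block and fits without 1 library were alternatives. Scripts were tested on simulated data. Named nuclear genes are up to 3 called members with the largest change each way in untreated libraries from each list, and the 5 most alike genes. Ptcd3, the marker genes Acta1, Ckm, Myh2 and Myh4, and the other mitochondrial mRNAs were named after their values were seen. Gene structure came from GENCODE M21, and 51632 of 51911 features had a symbol. The members and lists were chosen with earlier results of these data known.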

Additional observations from a re-analysis of the deposited data

Results flagged for a closer look

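CMC effects that differed between genotypes stood out in 3 places, each by a test of the difference itself. For mt-Cytb counts the effect in KO exceeded that in WT by 0.57 on the log2 scale (edgeR adjusted p = 1.39e-04), and for mt-Atp8_6 counts by 0.29 (edgeR adjusted p = 0.0209), a call that did not hold without single libraries. At the boundary of mt-Atp6 and mt-Co3 the relative depth differed by 0.39 (limma adjusted p = 0.0103), where 38.9% of 36 boundaries were called. The test at the boundary was added after the data were seen. That difference was 0.012 with 20 bases either side and 0.014 by lowest depth, neither called, and 0.18 relative to mt-Atp6 alone. Without WT CMC replicate 3, which stood apart from its group, all 3 differences were larger, at 0.76 for mt-Cytb, 0.37 for mt-Atp8_6 and 0.48 for the boundary. Without WT CMC replicate 2 all 3 were smaller, at 0.45, 0.24 and 0.34.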

How the results depend on the processing

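KO against WT was called for all 5 features in both treatments under each alternative run, and the boundary of mt-Atp6 and mt-Co3 was lower in KO under each. Other choices mattered for CMC. Without a filter on low counts, 2 features were called for CMC in WT, and leaving out 1 library gave 0 to 3. For the difference of CMC effects 4 were called by DESeq2 and 4 without a filter, and 1 to 5 without 1 library. The CMC effect on mt-Cytb in WT ran from -0.18 without WT CMC replicate 3 to 0.13 without replicate 2. At the boundary the CMC effect in WT was called with 5 bases (-0.26) or 20 bases (-0.28) either side, in a fit of all 12 libraries (-0.24), relative to mt-Atp6 alone (-0.28), and ran from -0.33 to -0.18 without 1 library. In KO it was -0.27 with 20 bases, -0.080 by lowest depth and -0.11 relative to mt-Atp6 alone, and 0.15 but not called in the fit of all 12 libraries. Scaled by the mean depth of mitochondrial mRNA genes, KO against WT turned to -0.58 for mt-Co1, -0.11 for mt-Co2, -0.37 for mt-Co3 and -0.31 for mt-Cytb in untreated, and to -0.74, -0.23, -0.84 and -0.069 in CMC libraries. The share of mt-Co2 per length was -0.11. The cause of these changes was not tested. Of 78 results with a replicate block, 2 changed their call, the share of mt-Co2 after CMC (limma adjusted p = 0.0927) and its 3' to 5' depth (limma adjusted p = 0.0576). Same-numbered libraries did not deviate together over nuclear genes (correlations of -0.0512 to 0.0084), and numbers were not taken as pairs. Deviations were from means of only 3 libraries, so these correlations cannot show whether same-numbered libraries share RNA. Of 183 alternatives of the 16 main results 163 kept direction and call, and of 736 alternatives of 78 other values 687 did.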
